A study of Homo sapiens with 6 samples.

Results

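The genes described here encode chaperones of the cytosol and of mitochondria with their regulators: the HSP70 and HSP110 proteins, their J-domain and BAG partners, HSP90 and its partners, small heat shock proteins, the CCT ring and the mitochondrial chaperones. They were chosen by name as a list of 45 genes, and 43 of them had a probe set annotated to that gene alone, among 18417 genes measured. HSF2 and AHSA1 had no such probe set and were not analysed here, nor were the probe sets that HSPA1A and HSPA1B share. The cells were RPMI 8226, an established line of human multiple myeloma, a cancer of plasma cells. They were irradiated with 6 Gy of carbon ions (3 arrays) or given 0 Gy (3 arrays), and total RNA was taken 1 day later. Carbon ions are heavy charged particles used in radiotherapy, and they ionise densely where they pass.

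Chaperones help other proteins fold, keep damaged ones from clumping and pass them on for refolding or destruction. When unfolded proteins accumulate, the transcription factor HSF1 is released from chaperones, binds heat shock elements in DNA and raises the mRNA of a subset of chaperones, a programme called the heat shock response. CCT, which folds actin and tubulin, and the mitochondrial chaperones are made at a high rate in growing cells without stress. Plasma cells secrete large amounts of antibody, and myeloma cells depend heavily on protein quality control.

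Of the 43 measured members, 11 rose after irradiation and 0 fell, at an adjusted p under 0.05 in limma over all genes. Over all 18417 genes, 6.35% rose and 8.18% fell at the same threshold, 14.5% in all. In RNA from a whole culture, a change in each cell and a change in which cells survive cannot be told apart. The median log2 difference, irradiated minus unirradiated, was 0.13 over the members and 0.04 over all genes. Without adjustment, 17 members had a positive difference and 0 a negative one at p under 0.05, against 15.8% and 14.0% of all genes. Of the 13 measured members classed here as heat-inducible from textbook knowledge, 7 rose, and all 13 had a positive difference, as did 59.8% of all genes. Those 7 were HSPA4L, BAG3, DNAJA1, HSPH1, SERPINH1, HSPA6 and DNAJB1. The rest of this class were HSP90AA1, STIP1, FKBP4, CHORDC1, HSPB1 and CRYAB. Among the 8 CCT subunits 1 rose, among the 5 mitochondrial chaperones 0 rose, and among the 17 other members 3 rose. HSPA8 and DNAJB6 were counted among these other members. These classes were set with earlier results of these data known, and the difference between them was not tested. Whether HSF1 also acts on CCT or mitochondrial genes in these cells was not measured. The roles and smaller classes hold so few genes that a count of 0 cannot be told from the shares over all genes.

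**Figure D1:**
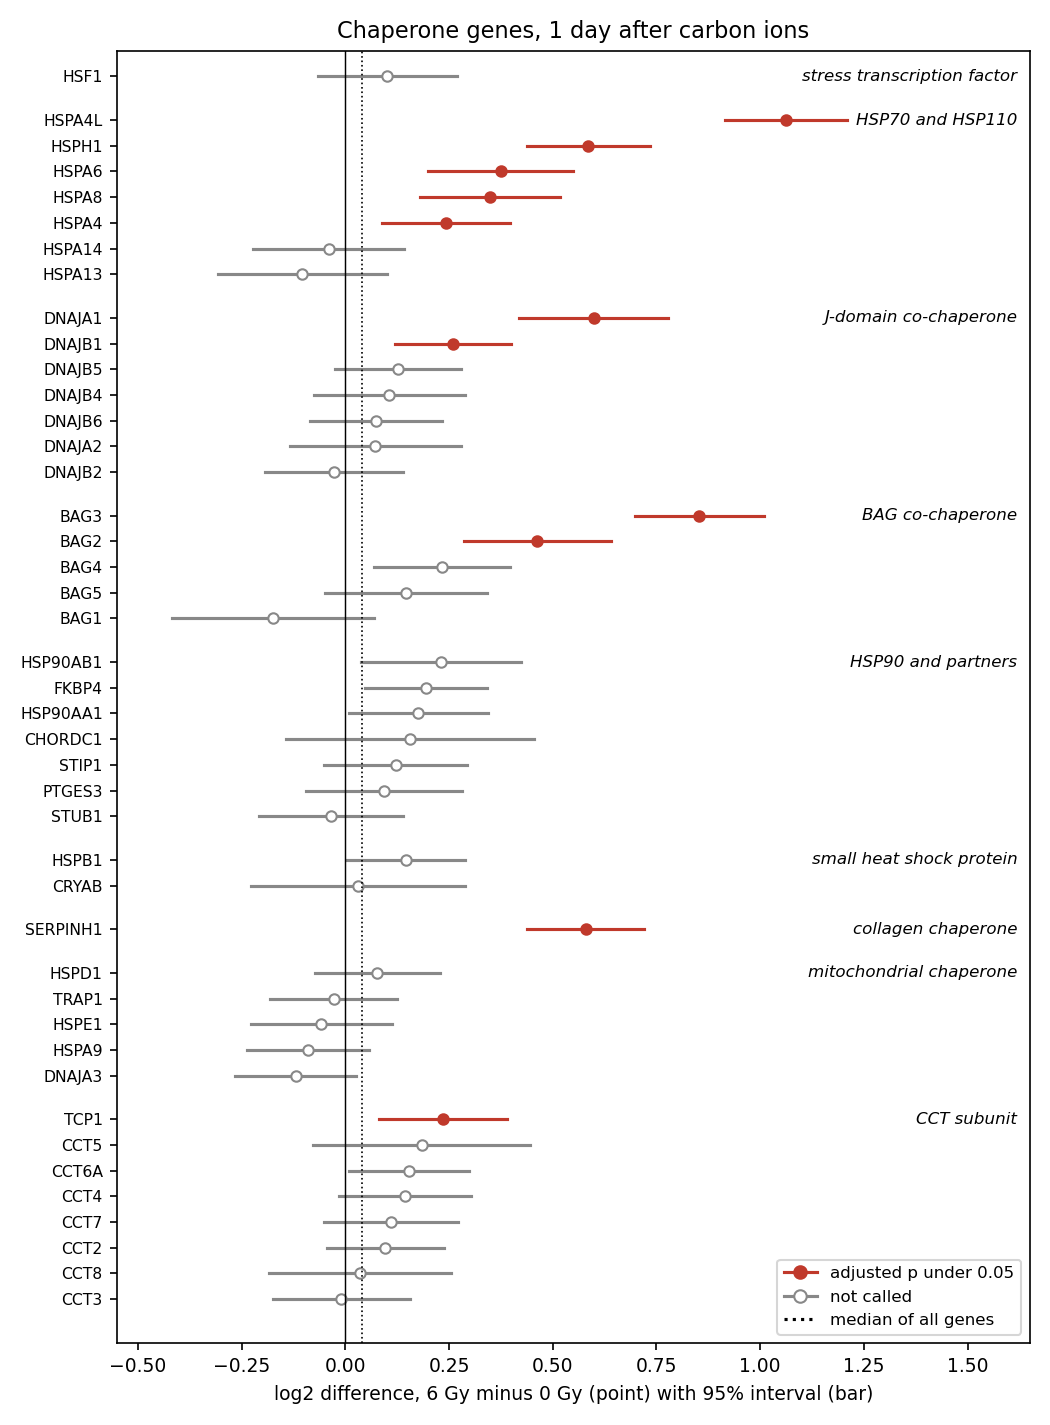
Log2 difference of each measured chaperone gene, 6 Gy minus 0 Gy (x axis), with its 95% interval from limma, by role (n = 3 arrays per group). Filled red points are the 11 genes that rose, open grey points the 32 not called, and the dotted line is the median of all genes at 0.04; HSPA4L at 1.06 lies furthest right and no gene was called lower.

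Promoter sequence is shown because HSF1 acts through elements near the gene start. The element searched was GAANNTTCNNGAA, 3 inverted GAA units, on both strands (the other strand reads TTCNNGAANNTTC), in RefSeq windows of 250 bases before to 50 after each start (GRCh38.p14). Windows were found for 38 of the 45 listed members, 36 of them measured. The element stood in 6 of the 38, or 15.8% (exact 95% binomial interval 6.02 to 31.3), and in 0.487% of all 27305 promoter windows. Of the 11 members that rose, 4 held it: HSPA6, HSPA8, DNAJA1 and SERPINH1. Of the 25 members with a window that were not called, 2 held it: CHORDC1 and DNAJB6. HSPA4L, BAG3, HSPH1, DNAJB1 and HSPA4 rose, but their windows held neither this element nor one of only 2 inverted units. The windows of BAG2 and TCP1, which also rose, held an element of 2 units only. Capitals mark the elements in the stretches below, each read 5′ to 3′ on the gene's own strand with 15 flanking bases.
HSPA6: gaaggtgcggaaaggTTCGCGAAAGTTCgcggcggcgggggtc
HSPA8: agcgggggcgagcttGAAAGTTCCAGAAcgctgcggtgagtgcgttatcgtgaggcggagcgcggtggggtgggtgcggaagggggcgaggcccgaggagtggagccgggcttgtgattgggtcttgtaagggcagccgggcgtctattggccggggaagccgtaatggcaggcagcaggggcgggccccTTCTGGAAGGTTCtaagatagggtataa
SERPINH1: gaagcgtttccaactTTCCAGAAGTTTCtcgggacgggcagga
CHORDC1: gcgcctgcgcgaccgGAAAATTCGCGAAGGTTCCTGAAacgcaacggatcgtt
DNAJB6: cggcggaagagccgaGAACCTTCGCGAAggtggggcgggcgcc
The HSPA6 stretch is chr1:161524451-161524493 on the plus strand and lies 89 to 47 bases before the gene start. That of HSPA8, chr11:123062164-123062381 on the minus strand, holds 2 elements within the last 245 bases before the start. SERPINH1 (chr11:75562162-75562204, plus strand) has its element within 91 bases of the start. The CHORDC1 stretch (chr11:90223072-90223124, minus strand) holds 3 overlapping elements, and that of DNAJB6 (chr7:157336858-157336900, plus strand) holds 1. In DNAJA1 the element begins 3 bases after the start and is not printed. A match is a string of letters and not a measured binding site. Only exact units at exact spacing inside the window were counted. A window without a match therefore does not show that the gene lacks a heat shock element.

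**Figure D2:**
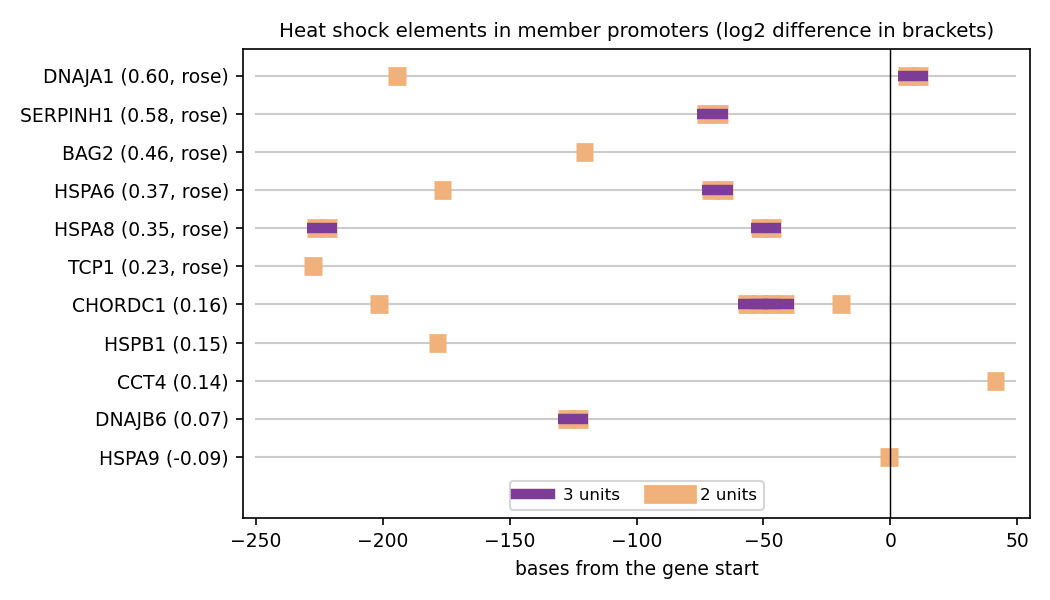
Position of heat shock elements relative to the gene start (x axis, bases) in the 11 member promoter windows that hold at least 2 inverted units, with each gene's log2 difference in brackets. Elements of 3 units (purple) lie in 6 genes, of which HSPA8 has 2 and CHORDC1 has 3 that overlap; orange marks 2 units.

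HSF1, the master regulator itself, read 9.89, 9.91 and 9.72 log2 units on the irradiated arrays, against 9.80, 9.71 and 9.71 on the unirradiated arrays. The groups overlapped, and the difference of 0.10 (95% interval -0.07 to 0.27) missed the threshold (adjusted p 0.401). HSF1 is controlled mainly as a protein, which these arrays do not measure.

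The HSP70 proteins bind exposed hydrophobic stretches of clients in a cycle driven by ATP, and the related HSP110 proteins reload them with ATP. Of 7 genes of this family, 5 rose and 0 fell, against 6.35% and 8.18% of all genes. HSPA4L, which encodes an HSP110 protein, read 7.94, 7.91 and 7.90 on the irradiated arrays, against 6.91, 6.85 and 6.80 on the unirradiated arrays. The groups lie far apart, by 1.06 ± 0.07 (SE) on the log2 scale or 2.09-fold, with an adjusted p of 1.73e-05. HSPH1, the HSP110 gene best known from heat shock, read 10.24, 10.36 and 10.29 on the irradiated arrays, against 9.69, 9.72 and 9.72 on the unirradiated arrays. All irradiated arrays lay above all unirradiated ones, by 0.59 ± 0.07 (SE), with an adjusted p of 4.97e-04. HSPA4, the third HSP110 gene, read 10.06, 10.15 and 10.00 in irradiated cells, against 9.82, 9.80 and 9.87 in unirradiated cells. Its arrays did not overlap either, but the rise was smaller, at 0.24 ± 0.07 (SE) with an adjusted p of 0.0435. HSPA8, encoding the constitutive HSC70 that carries most everyday HSP70 work, read 13.20, 13.11 and 13.20 on the irradiated arrays, against 12.87, 12.70 and 12.89 on the unirradiated arrays. All 3 irradiated values exceeded all 3 unirradiated ones, by 0.35 ± 0.08 (SE) on average (adjusted p 0.0145).

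HSPA6 encodes a strictly stress-induced HSP70 that is nearly silent in unstressed cells. Its probe set read 4.81, 4.55 and 4.69 on the irradiated arrays, against 4.31, 4.31 and 4.31 on the unirradiated arrays. It rose by 0.37 ± 0.08 (SE; adjusted p 0.0118). Its level lay between the lower quartile and the median of all probe sets on every array. Among the 18417 genes it was dimmer, at percentile 22.5 by level and so below their lower quartile. Without detection calls it is unknown whether the unirradiated level lay above background, and a close copy, HSPA7, may share signal. The family members that did not pass were HSPA14, which acts at the ribosome (-0.04), and HSPA13, a microsomal HSP70-like protein (-0.10). With 1 array left out the calls of 2 of these genes could end. The adjusted p of HSPA8 was 0.0592 without unirradiated replicate 2, in a range from 4.54e-04 to 0.0592 over 13 alternative fits. HSPA4 was called without irradiated replicate 3 (0.0419) and missed the threshold without each of the other arrays, up to 0.134, and also with array medians subtracted (0.0762).

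J-domain proteins deliver clients to HSP70 and trigger its ATP hydrolysis. Of 7 such genes, 2 rose and 0 fell, against 6.35% and 8.18% of all genes. DNAJA1 read 8.91, 9.01 and 8.74 on the irradiated arrays, against 8.29, 8.28 and 8.30 on the unirradiated arrays. Even the lowest irradiated array stood well above the tight unirradiated values, and the rise was 1.51-fold (0.60 ± 0.08 SE, adjusted p 0.00135). DNAJB1, the classic heat-induced HSP40, read 9.16, 9.20 and 9.20 in irradiated cells, against 8.92, 8.92 and 8.95 in unirradiated cells. The groups were narrow and apart, with a rise of 0.26 ± 0.06 (SE) and an adjusted p of 0.0231. Its call held without irradiated replicate 3 (0.0486) and ended without each of the other arrays, up to 0.0795. The other J-domain genes did not pass: DNAJA2, DNAJB2, DNAJB4, DNAJB5 and DNAJB6 differed by -0.03 to 0.13. DNAJB6, encoding a suppressor of polyglutamine aggregation, had a further probe set with a difference of 0.24, against 0.07 for the one used.

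BAG proteins release ADP from HSP70 so that it lets its client go. Of 5 BAG genes, 2 rose and 0 fell, against 6.35% and 8.18% of all genes. BAG3, which also directs damaged clients to autophagy and is a known HSF1 target, read 8.29, 8.33 and 8.25 on the irradiated arrays, against 7.42, 7.52 and 7.37 on the unirradiated arrays. That is a clear separation of 1.81-fold (0.85 ± 0.07 SE, adjusted p 8.06e-05). BAG2, which inhibits the ubiquitin ligase STUB1, read 8.55, 8.59 and 8.60 in irradiated cells, against 8.23, 8.16 and 7.97 in unirradiated cells. The irradiated arrays agreed closely and all lay higher, by 0.46 ± 0.08 (SE; adjusted p 0.00465). BAG4 differed by 0.23 (adjusted p 0.0606) and BAG5 by 0.14, neither of which passed. BAG1, which links HSP70 to the proteasome, differed by -0.17 (adjusted p 0.315), the lowest of all members, with unirradiated arrays that ranged from 7.71 to 8.16.

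**Figure D3:**
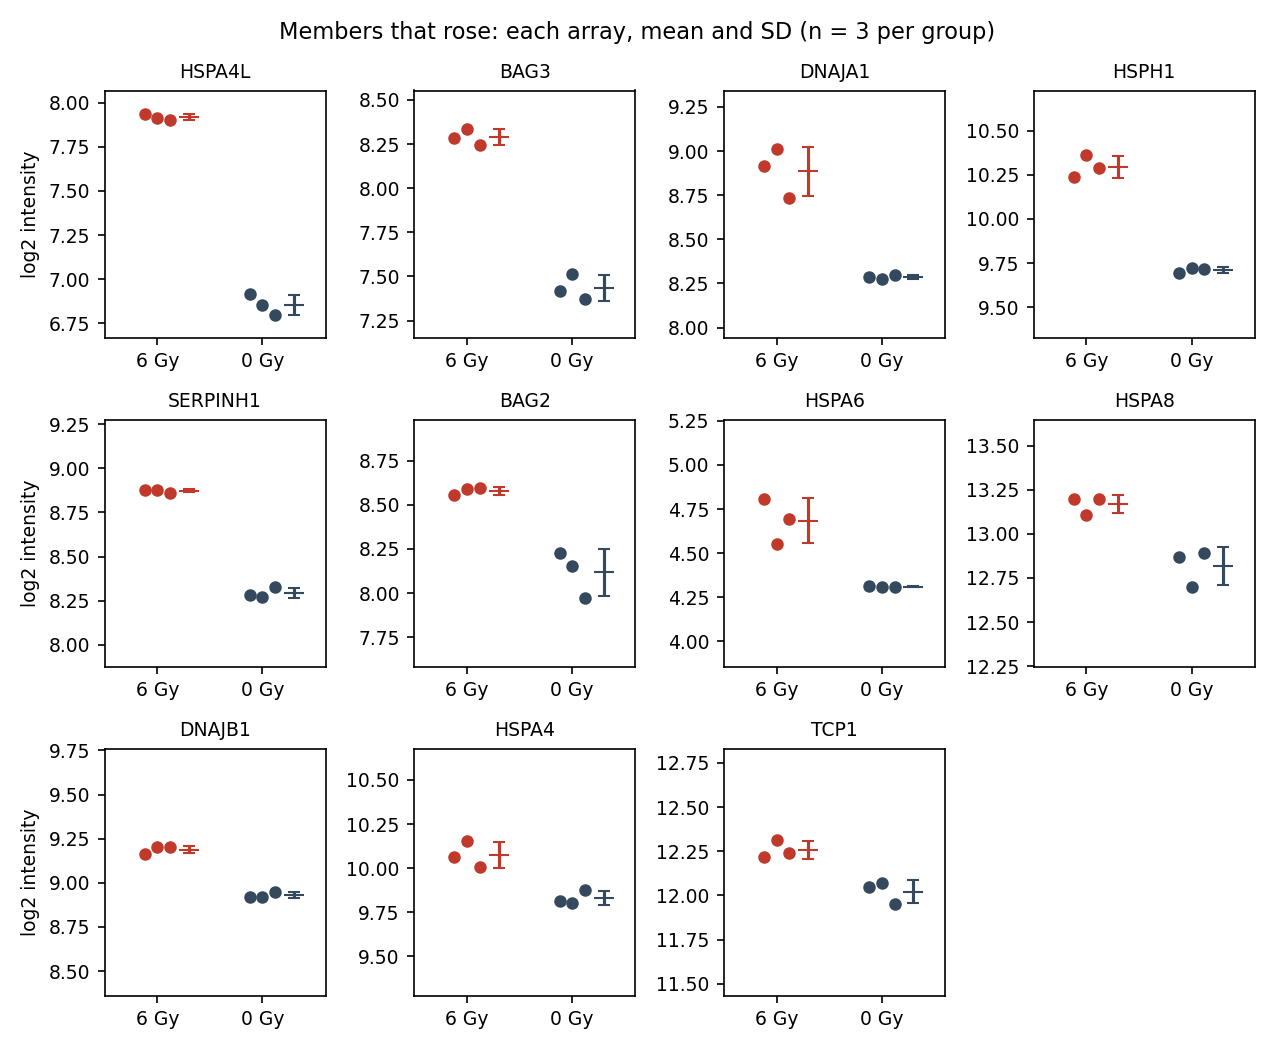
Log2 intensity (y axis) of the 11 members that rose, on each of 3 arrays at 6 Gy (red) and 3 at 0 Gy (dark), with the mean and SD; every panel spans the same range of log2 units. In each panel the lowest irradiated array lies above the highest unirradiated array, with a wide gap for HSPA4L and BAG3 and a narrow one for HSPA4 and TCP1.

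HSP90 completes the folding of kinases and steroid receptors with the help of partner proteins. Of 7 measured genes of HSP90 and its partners, 0 passed, and 3 had an unadjusted p under 0.05. Over all genes, 6.35% rose and 8.18% fell, and 15.8% were higher and 14.0% lower at the unadjusted threshold. HSP90AB1, the constitutive cytosolic form, read 12.08, 12.07 and 12.34 on the irradiated arrays, against 11.95, 11.87 and 11.99 on the unirradiated arrays. The arrays did not overlap, and irradiated replicate 3 stood above the other irradiated ones. The difference was 0.23 ± 0.09 (SE), with a 95% interval from 0.04 to 0.42 and an adjusted p of 0.107. HSP90AA1, the stress-inducible form, differed by 0.18 ± 0.07 (SE; adjusted p 0.149), and FKBP4, a prolyl isomerase that joins HSP90 to steroid receptors, by 0.19 ± 0.07 (SE; adjusted p 0.0793). STIP1, which hands clients from HSP70 to HSP90, differed by 0.12, and PTGES3, the p23 partner, by 0.09. STUB1, a ubiquitin ligase that marks chaperone clients for destruction, read 7.77, 7.89 and 7.78 in irradiated cells, against 7.76, 7.97 and 7.82 in unirradiated cells, so the groups overlapped fully. CHORDC1, whose promoter stretch above holds 3 elements, varied widely within both groups and differed by 0.16 ± 0.13 (SE; adjusted p 0.471).

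Among the small heat shock proteins, which hold unfolded proteins without using ATP, 0 of 2 passed, against 14.5% of all genes. HSPB1 read 13.05, 13.02 and 13.01 on the irradiated arrays, against 12.87, 12.86 and 12.91 on the unirradiated arrays. These do not overlap, but the step was small at 0.15 ± 0.06 (SE), with an adjusted p of 0.155. CRYAB, known from lens and muscle, read 3.44, 3.55 and 3.91 in irradiated cells, against 3.72, 3.59 and 3.51 in unirradiated cells. Those values overlapped, and each lay below the lower quartile of its own array (3.91 to 3.97 on the irradiated arrays, 3.89 to 3.94 on the unirradiated arrays).

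SERPINH1 encodes HSP47, a collagen chaperone of the endoplasmic reticulum whose gene is driven by HSF1. It read 8.88, 8.88 and 8.86 on the irradiated arrays, against 8.28, 8.27 and 8.33 on the unirradiated arrays. The arrays within each group agreed almost exactly, and the rise was 0.58 ± 0.06 (SE) or 1.49-fold, with an adjusted p of 3.93e-04. Of 4 fibroblast markers on the array, which include collagens, COL3A1 (0.29) and COL1A1 (0.23) rose and 2 did not pass, of which PDGFRB differed by 0.23 (adjusted p 0.164). The mean log2 level of these 4 markers was 5.75 to 5.96 on the irradiated arrays and 5.59 to 5.67 on the unirradiated arrays. These levels were near the array medians over all probe sets. The calls of both collagen genes ended under several single-array omissions, with an adjusted p up to 0.0845 for COL3A1 and 0.113 for COL1A1, and their part in the rise of SERPINH1 was not tested.

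Mitochondrial chaperones fold proteins imported into the matrix. Of 5 measured, 0 passed, against 14.5% of all genes. At an unadjusted p under 0.05 there were also 0, against 15.8% (higher) and 14.0% (lower) of all genes. DNAJA3, the mitochondrial J-domain protein, read 8.82, 8.87 and 8.84 on the irradiated arrays, against 8.99, 8.99 and 8.90 on the unirradiated arrays. It was lower on all irradiated arrays, but the difference of -0.12 (95% interval -0.27 to 0.03) missed the threshold at an adjusted p of 0.253. TRAP1, the mitochondrial HSP90, read 10.83, 10.86 and 10.89 in irradiated cells, against 10.91, 10.95 and 10.80 in unirradiated cells, with groups that overlapped. A further, dimmer probe set of TRAP1 differed by -0.16. HSPA9, the mitochondrial HSP70, differed by -0.09 with an interval from -0.24 to 0.06. HSPD1 and HSPE1, which encode the HSP60 chamber and its HSP10 lid, are divergent neighbours on chromosome 2 whose promoter windows overlap by 204 bases. They differed by 0.08 and -0.06, and neither passed.

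CCT is a double ring of related subunits that encloses actin and tubulin while they fold. Of 8 subunit genes, 1 rose and 0 fell, against 6.35% and 8.18% of all genes. Of the 8, 7 had a positive difference, against the 59.8% of all genes given above, with a median of 0.13. TCP1 read 12.22, 12.31 and 12.24 on the irradiated arrays, against 12.05, 12.07 and 11.95 on the unirradiated arrays. The gap was narrow, at 0.23 ± 0.07 (SE), and the adjusted p of 0.0483 sat at the edge of the threshold. Without any 1 of the arrays the TCP1 call ended, with an adjusted p between 0.0762 and 0.141. CCT6A (0.15, interval 0.01 to 0.30), CCT4 (0.14, interval -0.02 to 0.30) and CCT2 (0.10, interval -0.05 to 0.24) did not overlap between groups and did not pass. With TCP1, 4 of the 8 subunits were apart and higher, or 50%, against 19.0% of all genes. CCT5 read 10.73, 10.82 and 11.23 in irradiated cells, against 10.77, 10.69 and 10.76 in unirradiated cells, so its difference of 0.18 rests on irradiated replicate 3. That array was the highest irradiated one for 5 of the 8 subunits. CCT3 differed by -0.01, with an interval from -0.17 to 0.15.

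Averaged over the 13 heat-inducible members, each gene set against its own unirradiated mean, the irradiated arrays stood at 0.37, 0.42 and 0.39 log2 units and the unirradiated arrays at -0.0042, -0.0053 and 0.0095. The 3 irradiated arrays agreed closely here. Over the CCT subunits they spread out, at 0.036, 0.11 and 0.21, all above the unirradiated arrays at 0.024, -0.0016 and -0.022. For the mitochondrial chaperones the groups overlapped, with -0.078, -0.029 and -0.024 on the irradiated arrays, against 0.027, 0.024 and -0.052 on the unirradiated arrays. Over all genes the irradiated arrays stood at -0.019, 0.020 and 0.039. Because HSPA4L and BAG3 weigh on the mean, the median difference of the inducible class was lower, at 0.26. The classes also differed in brightness, with median log2 levels of 9.06 (inducible), 10.88 (CCT) and 10.87 (mitochondrial). Whether brightness bears on the size of these differences was not tested.

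**Figure D4:**
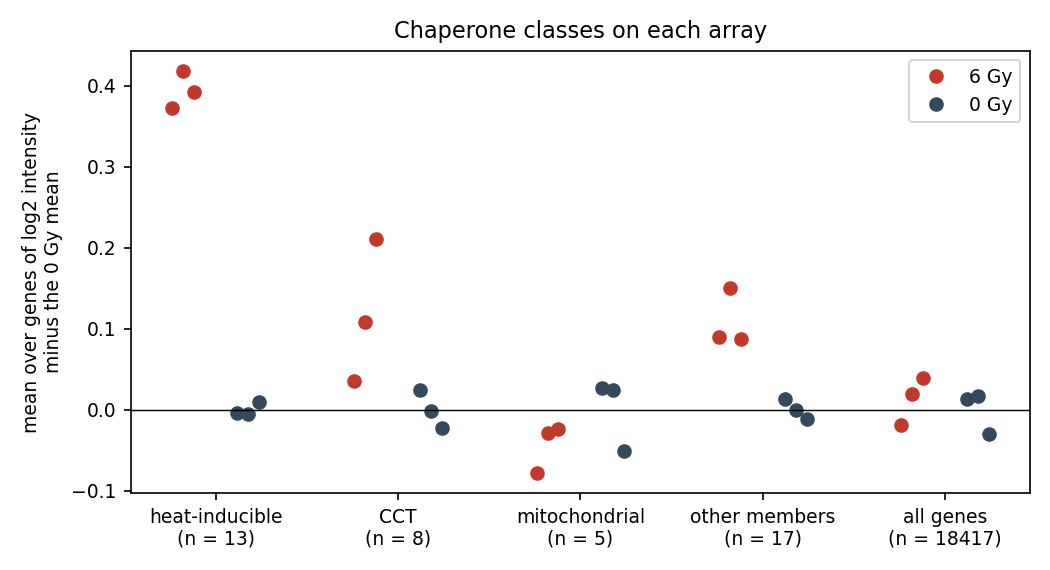
Mean over genes of log2 intensity minus each gene's 0 Gy mean (y axis), for each array, in 4 chaperone classes and over all genes. The irradiated arrays of the heat-inducible class lie at 0.37 to 0.42, those of CCT spread from 0.036 to 0.21, and those of the mitochondrial class overlap the unirradiated arrays.

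The arrays of the groups did not overlap for 20 members with higher and 2 with lower irradiated values, HSPA9 and DNAJA3. Over all genes 19.0% were apart in the higher and 15.7% in the lower direction. With a minimum of 1.5-fold added to the threshold, 4 members rose, HSPA4L, BAG3, DNAJA1 and HSPH1, against 0.603% of all genes. HSPA8, the HSP90 genes, HSPD1, HSPE1 and several CCT genes have close copies or processed pseudogenes in the genome, so their probe sets may share signal.

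Chaperone genes outside the 45 were counted in the same fit, in which 6.35% of all genes rose and 8.18% fell. The lists here and in the next paragraph are short, and their counts were not tested against these shares. Of 9 further HSP90 partners, 2 rose and 0 fell. These were PPID, the cyclophilin 40 gene (0.44, adjusted p 0.00895), and SUGT1, a partner of HSP90 at kinetochores (0.24, adjusted p 0.0478), while CDC37L1 differed by -0.24 (adjusted p 0.058). Of 30 further J-domain genes, 0 rose and 1 fell: DNAJB12, a J-domain protein of the endoplasmic reticulum membrane, by 0.54 on the log2 scale (adjusted p 0.00519). DNAJC1 differed by -0.23 and DNAJC12 by 0.30, and neither passed. Of 7 other HSP70 genes and regulators 0 passed, and 1 had an unadjusted p under 0.05, against 15.8% (higher) and 14.0% (lower) of all genes. HSPA2 differed by 0.19, BAG6 by -0.14 and HSPBP1 by 0.13. Of 5 small heat shock genes 0 passed, adjusted or not, with HSPB9 at -0.18, HSPB7 at -0.18 and HSPB8 at 0.08.

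Of 10 genes of prefoldin and CCT cofactors, which bring clients to the ring, 0 rose and 1 fell, against 6.35% and 8.18% of all genes. The gene that fell was the testis form CCT6B (-0.29, adjusted p 0.0205), while PFDN5 (-0.25) and PFDN2 (-0.13) did not pass. Among 13 other mitochondrial folding and protease genes 0 rose and 2 fell: LONP1, the matrix protease, by 0.32 and GRPEL2, a nucleotide exchange factor of mitochondrial HSP70, by 0.28. TIMM44, which docks that HSP70 at the import channel, differed by -0.18 and did not pass. Among 9 other heat shock factors and known HSF1 targets 2 rose and 1 fell. HMOX1, encoding heme oxygenase and also a target of the oxidative stress factor NRF2, rose by 0.74 (adjusted p 9.30e-04). DEDD2 rose by 0.41 (adjusted p 0.00648), and HSF4, a heat shock factor of the lens, fell by 0.36 (adjusted p 0.0087). Leaving out 1 array could end the calls of SUGT1 (each array in turn), GRPEL2 (each array in turn), LONP1 (4 of the 6 arrays) and CCT6B (irradiated replicate 1 or unirradiated replicate 2), with an adjusted p up to 0.150, 0.130, 0.0957 and 0.0863 in this order.

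Array medians lay between 5.66 and 5.72 on the irradiated arrays and between 5.64 and 5.67 on the unirradiated arrays, and the number of arrays limits the precision. Array correlations were 0.996 to 0.998 within groups and 0.992 to 0.994 between them. The labelled cell type was checked against 8 plasma cell markers, whose mean log2 level was 10.08 to 10.14 on the irradiated arrays and 10.11 to 10.15 on the unirradiated arrays, although SLAMF7 was dim (5.18 irradiated, 4.63 unirradiated). Of these 8, SLAMF7 rose, CD38 and XBP1 fell and 5 did not pass; CD38 missed the threshold without unirradiated replicate 2 (0.055), and XBP1 without 5 of the arrays, up to 0.117. T cell and monocyte markers were dim, with list means of 4.09 to 5.10 on the irradiated arrays and 3.95 to 4.81 on the unirradiated arrays. Here 0 of 8 passed and 3 had an unadjusted p under 0.05, against 15.8% (higher) and 14.0% (lower) of all genes. Those with the smallest p differed by 0.33 (CD3G), 0.30 (CD3D) and 0.11 (CD2) among T cell markers and by 0.23 (CSF1R), 0.12 (CD14) and 0.11 (LYZ) among monocyte markers.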

How the data were processed

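The deposited table holds 33297 probe set values for each of 6 arrays. The authors' deposited values were read as log2 intensities, from their range; how they were normalized and corrected for background is not given in the sources used here, and there are no detection calls. The platform annotation gave 19460 probe sets a single gene. For each of 18417 genes the brightest probe set over all arrays was used; 2 members, DNAJB6 and TRAP1, had more than 1.

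Groups were compared with limma 3.58.1 in R 4.3.3, two-sided and unfiltered, without covariates, with Benjamini-Hochberg adjustment over all genes. "Rose" and "fell" are used at an adjusted p under 0.05. Standard errors and 95% intervals are limma's. The steps were tested on simulated data with independent noise for each gene. That noise held no effect shared by the genes of an array, so the simulation does not bear on such effects. For single genes 3 arrays per group allow no exact permutation p below 0.1, so none was run. The labels do not say that the arrays came from separate cultures, and the spread behind each p-value may be technical.

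The members, roles, classes and further lists were chosen with earlier results of these data known. Values on each array are given for members that rose and, in roles with none, for the most and least changed; CCT5 was added after its values were seen. Of each further list the 3 genes with the smallest p are named. Alternatives were a replicate block by sample number, single-array omissions, removal of the dimmest 33.3% of genes, quantile normalization, subtraction of array medians, a trended robust prior, array weights, averaged probe sets, an adjusted p under 0.01 and a minimum of 1.5-fold. Promoter windows are from RefSeq, GRCh38.p14. Python 3.11.15, pandas 2.3.3 and matplotlib 3.10.9 made tables and figures.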

Additional observations from a re-analysis of the deposited data

How the results depend on the processing

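Counts of members that rose ran from 4 to 16 of those tested over the alternatives, against 11 in the report, and 0 fell under any of them. They were 6 at an adjusted p under 0.01 and 4 with a minimum of 1.5-fold, when 384 and 111 of all genes rose, against 1169. In either direction 1077 and 388 of all genes were then called, against 2676. With 1 array left out, 7 to 10 members rose, as did 619 to 887 of all genes. In either direction 1471 to 2184 genes were called. The lowest values, 7, 619 and 1471, came without unirradiated replicate 2, and 1584 genes were called without unirradiated replicate 1. HSPA4L, BAG3, HSPH1, DNAJA1, SERPINH1, BAG2 and HSPA6, 7 genes, rose in each of these 6 fits. Subtracting array medians left 9 members, quantile normalization gave 13 and the intensity trend with a robust prior 16, which added BAG4, FKBP4, HSP90AA1, HSP90AB1 and HSPB1 to the 11. The share of all genes that rose moved too, to 5.30%, 7.77% and 7.70% in this order, against 6.35% in the report. HSPA6 and CRYAB are not tested once the dimmest genes are left out. The median difference of mitochondrial chaperones lay between -0.11 (without irradiated replicate 3) and -0.015 over the single-array omissions, that of CCT subunits between 0.096 and 0.16, and that of inducible members between 0.25 and 0.27. At least 2 inverted units stood in 28.9% of member promoters and 13.7% of all promoters. These shares include every promoter with an element of 3 units, so they are not shares of promoters with 2 units only.

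The labels number the samples 1 to 3 in both groups. Deviations of same-numbered arrays from their group means correlated at -0.04, 0.10 and -0.11, so the numbers were not taken to pair the samples. With a replicate block by sample number, 8 members rose, all among the 11. Of all genes 1919 were called in either direction, 765 of them higher. HSPA4, DNAJB1 and TCP1 missed the threshold with this block.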
